A study of Mus musculus with 6 samples.

Results

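The genes of the receptors for glutamate and GABA, the main fast excitatory and inhibitory transmitters of the brain, were examined for H3K79me2, a histone mark in which lysine 79 of histone H3 carries a pair of methyl groups. The set held the protein-coding genes of GENCODE mouse release 21 on chromosomes 1 to 19 whose symbols name an AMPA, kainate, NMDA or delta receptor subunit, a metabotropic glutamate receptor, or a subunit of the GABA-A or GABA-B receptor, which gave 43 of 20807 protein-coding genes. A further 4 such symbols, Gabra3, Gabre, Gabrq and Gria3, lie on chromosome X and were left out. The mark was mapped by chromatin immunoprecipitation and sequencing in N2a, a mouse neuroblastoma line long in culture. The cells were transfected with a plasmid for a control short hairpin RNA (CTR) or for a hairpin against Npm1 (NPM1 KD), selected with puromycin and collected on day 3, 72 h after transfection. Each group had 2 libraries, from different passages transfected in separate batches, and 1 pooled input that came without a peak list. Both groups thus carried a hairpin plasmid and the selection, and each library was a bulk culture in which fewer marked cells and less mark per cell cannot be told apart.

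H3K79me2 is set by the methyltransferase DOT1L and is known to lie over the first part of transcribed genes, from the start site into the gene body. Ionotropic receptors are ion channels built of several subunits. Metabotropic glutamate receptors and the GABA-B receptor act through G proteins. Which subunits a neuron uses sets the speed, ion selectivity and pharmacology of its synapses, so most neurons express a selection of these genes.

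The deposited peak lists were read as the length of a gene window under peaks. A window is the gene body with the 3 kb upstream of its start, and the percent of it under broad peaks was the main value. The broad lists held 34845 to 48764 peaks over 223 to 253 Mb. The background pileup that the fold and p of narrow peaks imply, a relative measure of depth, was 11.9 and 7.65 in CTR 1 and CTR 2, and 8.99 and 11.8 in NPM1 KD 1 and NPM1 KD 2. Of 10 markers of neuroblastoma and neurons, 7 had a broad peak in all 4 libraries, with Hand2, a transcription factor of sympathetic neurons, under peaks over 100% of its window, whereas Nefl and Nefm had none. Of the markers of other cells, 1 of 4 for glia (Mbp, at a mean of 1.44%), 0 of 3 for fibroblasts and 1 of 3 for leukocytes (Cd68, 88.4% and 68.0% in CTR, 65.9% and 38.0% in NPM1 KD) had a peak in all 4 libraries. The first base of Cd68 lay under a broad peak in only 1 library, and overlap of marker windows with neighbouring genes is not given here. The part of such cells in the results was not tested. Npm1, the targeted gene, was covered over 88.4% to 89.1% of its window in the 4 libraries, and a peak list holds no measure of its knockdown.

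Most receptor genes carried no H3K79me2 peak. A broad peak lay in all 4 libraries at 8 of the 43 genes (18.6%), against 52.5% of all protein-coding genes; such genes are called marked here and all others unmarked. Of the unmarked genes 33 (76.7% of the 43) had none in any library, against 44.6% of all, and 2, Gabrb1 and Grin2c, had one in a single library. Many receptor genes are long. Among genes of at least 100 kb, 3 of 24 receptor genes (12.5%) and 58.3% of all protein-coding genes were marked in all 4 libraries. Lengths were not matched beyond this cut, and the part of gene length in the difference was not tested. Among the 8 marked genes the median percent covered was 20.5 in CTR and 23.1 in NPM1 KD, beside 48.4 and 53.1 over all genes with a peak in all 4 libraries, and 30.5 and 35.5 over those of at least 100 kb. The narrow lists gave 10 genes with a peak in all 4 libraries (23.3%, against 52.8% of all) and 29 with none (67.4%, against 44.1% of all). The plot of percent covered by gene shows the values of each library for 38 of the genes.

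Among the AMPA receptor genes, which encode the channels of fast excitatory transmission, only Gria2 was marked. Gria2 encodes the subunit whose edited form makes the channel impermeable to calcium. It spans chr3:80681450-80802835 on the minus strand. Broad peaks covered 19.9% and 18.0% of its window in CTR 1 and CTR 2, and 19.3% and 20.5% in NPM1 KD 1 and NPM1 KD 2. The groups overlapped, with means of 18.9% ± 1.32 (SD, n = 2) and 19.9% ± 0.858 (SD, n = 2). The mark began between 18 bp before and 22 bp after an annotated transcript start that lies 256 bp downstream of the first base of the gene, and ran on as 1 broad peak of 20118, 19632 and 19692 bp in CTR 1, CTR 2 and NPM1 KD 1. In NPM1 KD 2 this peak was split and its first piece was 11188 bp long. Gria1 and Gria4 had no broad peak.

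The promoters of Gria2 and Gria4 are shown because both are rich in CpG while only the first heads a marked gene. They are RefSeq promoters on GRCm38.p6, from 250 bases before to 50 bases after the annotated start, read 5′ to 3′ on the minus strand at chr3:80802786-80803085 and chr9:4796185-4796484, with CpG dinucleotides in capitals.
Gria2: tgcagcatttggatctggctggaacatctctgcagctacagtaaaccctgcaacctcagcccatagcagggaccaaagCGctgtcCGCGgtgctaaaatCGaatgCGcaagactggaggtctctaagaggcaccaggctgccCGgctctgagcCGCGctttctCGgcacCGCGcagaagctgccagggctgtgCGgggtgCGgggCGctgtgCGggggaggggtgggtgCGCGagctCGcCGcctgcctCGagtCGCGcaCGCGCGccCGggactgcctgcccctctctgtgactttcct
Gria4: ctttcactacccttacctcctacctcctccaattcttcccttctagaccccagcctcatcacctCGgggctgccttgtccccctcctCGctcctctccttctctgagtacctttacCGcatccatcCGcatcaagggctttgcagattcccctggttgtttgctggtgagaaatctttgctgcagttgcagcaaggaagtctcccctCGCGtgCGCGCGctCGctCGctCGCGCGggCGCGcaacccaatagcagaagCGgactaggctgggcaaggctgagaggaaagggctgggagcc
The Gria2 promoter holds 26 CpG, with an observed to expected ratio of 0.804, and that of Gria4 holds 17, with a ratio of 0.662. The median ratio over the 31396 RefSeq promoters of chromosomes 1 to 19 was 0.389. No base of either promoter lay under a peak, in the broad or the narrow lists, in any library, so the mark of Gria2 started after this stretch. The Gria2 promoter also holds 1 match on either strand to GGACAGC, the right part of the element bound by the neuronal repressor REST, as do 6.68% of all promoters. The left part, TCAGCACC, was found in 1.65% of all promoters and in none of the 6 promoters matched to marked receptor genes, too few to tell a difference. The promoter of the unmarked Grm2 held 1 match to each part. The parts were searched separately, so whether they form a joined element was not tested.

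Of the 5 kainate receptor genes, whose channels modulate transmission before and after the synapse, only Grik5 was marked. Grik5 encodes a high-affinity subunit that needs a partner to form a channel, and lies at chr7:25009849-25072346 on the minus strand. CTR 1 and CTR 2 had 27.5% and 16.4% of its window under broad peaks, and NPM1 KD 1 and NPM1 KD 2 had 36.0% and 20.0%. The libraries numbered 1 were higher than those numbered 2 in both groups, and the groups overlapped (means 22.0% ± 7.81 and 28.0% ± 11.3, SD, n = 2). Together with Gabbr1, Grik5 was 1 of the 2 receptor genes with a broad peak over the first base of the gene in all 4 libraries (4.65%, against 23.1% of all protein-coding genes). Counting any annotated transcript start gave 4 receptor genes (9.3%), against 38.5% of all. No receptor gene had its first base under a broad peak in 1 to 3 libraries only.

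The peak at the start of Grik5 is shared with another gene. It ran from 11989 to 13849 bp upstream of the start to 5246 to 7262 bp inside the gene, and Zfp574, a zinc finger gene, starts in the opposite direction close by. The window of Zfp574 held 32.1% and 53.7% of the covered bases of Grik5 in the CTR libraries and 24.5% and 44.1% in the NPM1 KD libraries, so a signal there cannot be given to either gene. The shared promoter, at chr7:25072320-25072619 on the minus strand, is shown because it is the stretch that the peak spans in both directions, with CpG in capitals.
Grik5: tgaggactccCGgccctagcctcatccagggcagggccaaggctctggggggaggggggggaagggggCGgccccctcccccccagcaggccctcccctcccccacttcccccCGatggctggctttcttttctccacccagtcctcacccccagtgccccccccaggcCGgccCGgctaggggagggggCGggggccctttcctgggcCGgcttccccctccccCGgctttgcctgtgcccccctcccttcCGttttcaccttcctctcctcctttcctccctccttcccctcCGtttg
All 300 bases lay under broad and narrow peaks in every library. The sequence was 72.0% G and C but held 10 CpG, an observed to expected ratio of 0.277, below the median of all promoters. Grik1, Grik2, Grik3 and Grik4 had no broad peak, although the promoters of Grik2, Grik3 and Grik4 held 26, 50 and 42 CpG. Grik3 had 1 narrow peak of 176 bp, in CTR 1.

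**Figure D1:**
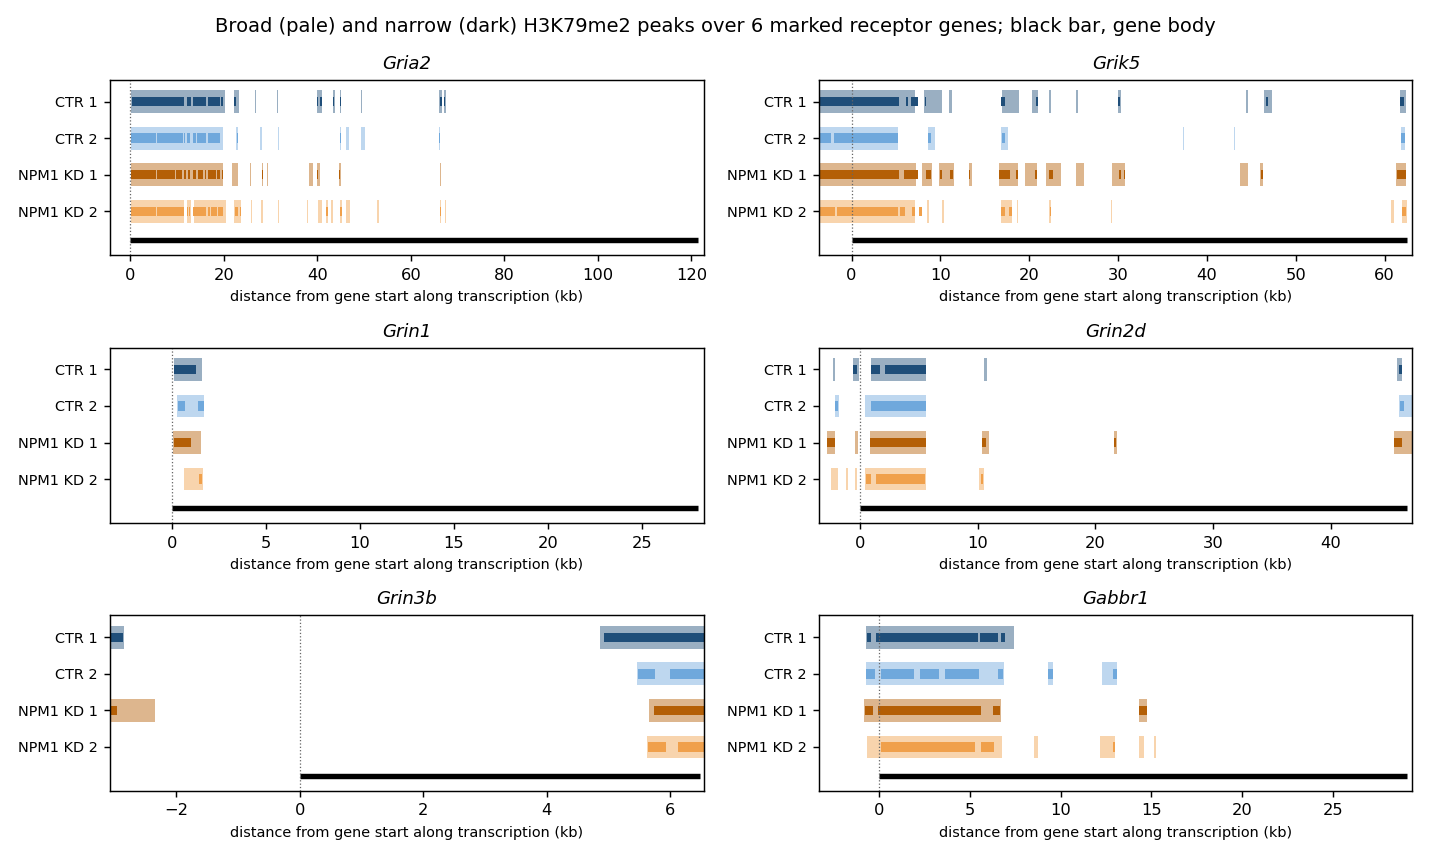
Broad peaks (pale bars) and narrow peaks (dark bars) of each library over 6 receptor genes with a broad peak in all 4 libraries; the horizontal axis is the distance from the gene start in kb along the direction of transcription, the dotted line is the start and the black bar is the gene body. The longest peaks of Gria2 and Gabbr1 and the only peak of Grin1 lie at or just after the start, whereas Grin3b has a peak at the far end of its window in every library and a further one at the upstream end in CTR 1 and NPM1 KD 1.

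The NMDA receptor, the calcium-permeable channel of synaptic plasticity, needs the subunit encoded by Grin1 in every assembly. Grin1 lies at chr2:25291181-25319187 on the minus strand. It carried 1 short broad peak in each library, with lengths of 1512 and 1403 bp in CTR 1 and CTR 2, and 1488 and 1038 bp in NPM1 KD 1 and NPM1 KD 2. In the same order this was 4.88%, 4.52%, 4.8% and 3.35% of the window, with NPM1 KD 2 lowest and NPM1 KD 1 between the CTR libraries. The peak had a mean fold over background of 2.25, 2.22, 2.18 and 1.83. This was at or above 64.6%, 40.4%, 56.7% and 24.6% of the broad peaks of each list. The peak was absent when the lists were limited to a −log10 q of 5 upward, which kept 10759 to 13536 of the 34845 to 48764 peaks. The Grin1 promoter, at chr2:25319138-25319437 on the minus strand, is shown because its CpG ratio was the highest of the receptor promoters while the gene had the smallest coverage of the 8.
Grin1: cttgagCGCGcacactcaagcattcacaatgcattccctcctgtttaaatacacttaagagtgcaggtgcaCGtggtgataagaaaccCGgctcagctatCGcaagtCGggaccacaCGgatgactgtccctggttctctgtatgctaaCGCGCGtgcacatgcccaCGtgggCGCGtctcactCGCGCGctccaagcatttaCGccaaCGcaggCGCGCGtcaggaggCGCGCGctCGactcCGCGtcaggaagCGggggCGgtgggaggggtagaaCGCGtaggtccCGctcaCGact
It held 33 CpG, in capitals, at a ratio of 1.2. The broad peak touched 13 of its 300 bases in NPM1 KD 1 and none in the other libraries.

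The other marked NMDA receptor genes lay beside marked neighbours. Grin2d, which encodes a subunit of slowly deactivating channels, had 12.6% and 12.5% of its window covered in CTR 1 and CTR 2, and 15.5% and 13.1% in NPM1 KD 1 and NPM1 KD 2. Both NPM1 KD libraries were above both CTR libraries, by a mean of 1.74 percentage points. Of these bases, 95.5%, 100%, 88.6% and 93.0% also belonged to the windows of Kdelr1 or Grwd1, a receptor of the secretory pathway and a ribosome assembly factor. The RefSeq start of Grin2d is 11697 bp downstream of the first base of the GENCODE record, beyond the main peak there.

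Grin3b, a glycine-binding subunit, had 18.7% and 10.6% covered in CTR 1 and CTR 2, and 15.5% and 8.98% in NPM1 KD 1 and NPM1 KD 2. These bases were all, in every library, inside the windows of Tmem259 and Wdr18, and the groups overlapped. The strongest peak that reached into Grin3b, at the far end of its window, had a mean fold of 12.7 to 15.1 in the 4 libraries, above 99.0% to 99.8% of the peaks of their lists, and as its bases in the window are shared with a neighbouring gene it cannot be given to either. Grin2c had a broad peak in NPM1 KD 1 alone, of 379 bp and no nearer than 2603 bp upstream of the start, in the window of Fdxr. Grin2a and Grin2b, the main partners of Grin1 in the forebrain, and Grin3a had no broad or narrow peak.

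Metabotropic glutamate receptors tune transmitter release and the response to it. Of their genes, Grm2, Grm3, Grm4, Grm5, Grm6, Grm7 and Grm8 had no broad or narrow peak in any library. The products of Grm2 and Grm3 act mostly before the synapse on release, and that of Grm6 carries the light response of retinal bipolar cells.

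The GABA-A receptor is the chloride channel of fast inhibition, and its subunit genes sit in clusters. On chromosome 11, Gabra6, a subunit of cerebellar granule cells, and Gabrb2 had no broad or narrow peak. The 4 genes on chromosome 5 (Gabrg1, Gabra2, Gabra4 and Gabrb1) spread over 1398 kb, with a single broad peak of 130 bp in Gabrb1 in CTR 1. Gabrg3 and Gabra5 on chromosome 7 had no broad peak. Gabrr1 and Gabrr2, the rho subunits of retinal receptors, lay within 101 kb on chromosome 4 with no peak, and Gabrd, Gabrp and Gabrr3 had none either.

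The GABA-B receptor works as a pair, in which the product of Gabbr1 binds GABA and that of Gabbr2 couples to the G protein. Gabbr1, at chr17:37045966-37075067 on the plus strand, had 25.5% and 27.1% of its window covered in CTR 1 and CTR 2, and 25.0% and 27.7% in NPM1 KD 1 and NPM1 KD 2. The group means were both 26.3% (SD 1.18 and 1.93, n = 2). A broad peak of 8174, 7609, 7565 and 7440 bp began 648 to 832 bp before the start and included it. Gabbr2, at chr4:46662305-46991873 on the minus strand, had no broad or narrow peak in any library.

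The promoters of the pair are shown because the unmarked gene has the denser CpG. They lie at chr17:37045716-37046015 on the plus strand and chr4:46991665-46991964 on the minus strand, with CpG in capitals.
Gabbr1: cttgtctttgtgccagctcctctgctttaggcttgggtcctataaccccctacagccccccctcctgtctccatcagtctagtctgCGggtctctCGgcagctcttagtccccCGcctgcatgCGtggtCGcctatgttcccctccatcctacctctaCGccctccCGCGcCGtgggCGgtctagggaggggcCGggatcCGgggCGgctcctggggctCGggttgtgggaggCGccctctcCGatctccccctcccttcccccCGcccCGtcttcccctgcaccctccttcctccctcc
Gabbr2: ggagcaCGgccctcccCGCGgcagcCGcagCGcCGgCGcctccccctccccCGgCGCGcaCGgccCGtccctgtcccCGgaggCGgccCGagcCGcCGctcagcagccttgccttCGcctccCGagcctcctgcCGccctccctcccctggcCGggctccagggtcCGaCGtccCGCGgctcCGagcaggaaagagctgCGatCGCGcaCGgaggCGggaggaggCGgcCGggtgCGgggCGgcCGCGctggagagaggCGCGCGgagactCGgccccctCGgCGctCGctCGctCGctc
Gabbr1 held 18 CpG at a ratio of 0.573 and Gabbr2 held 46 at a ratio of 0.961. Broad peaks covered all 300 bases of the Gabbr1 promoter in every library. The narrow peaks covered 213 and 11 bases in the CTR libraries, and 89 and 0 in the NPM1 KD libraries.

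The CpG content of the promoters overlapped between marked and unmarked receptor genes. RefSeq promoters were matched for 29 of the 43 genes (35 promoters). Among those without an entry were Gabrd, Gria1, Grid1, Grik1, Grin2a, Grin2b, Grin3a, Grm4 and Grm5. The median CpG ratio was 0.689 over 6 promoters of marked genes, ranging from 0.172 to 1.2. It was 0.519 over the 29 others, ranging from 0.112 to 1.16. The 6 include Grin3b (0.172), Grin2d (0.848) and Grik5 (0.277), whose covered bases lay wholly, mostly and in part in windows of other genes. The mark counted for them thus may not belong to the promoter compared. The GC box, searched as GGGCGG on both strands and itself holding a CpG, was found in 50.0% and 48.3% of these promoters and in 36.0% of all promoters. The TATA box, searched as TATAAA on both strands, was found in 5.71% of the receptor promoters and 13.6% of all. The plot of CpG ratio against coverage shows unmarked genes along the whole range of the ratio.

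**Figure D2:**
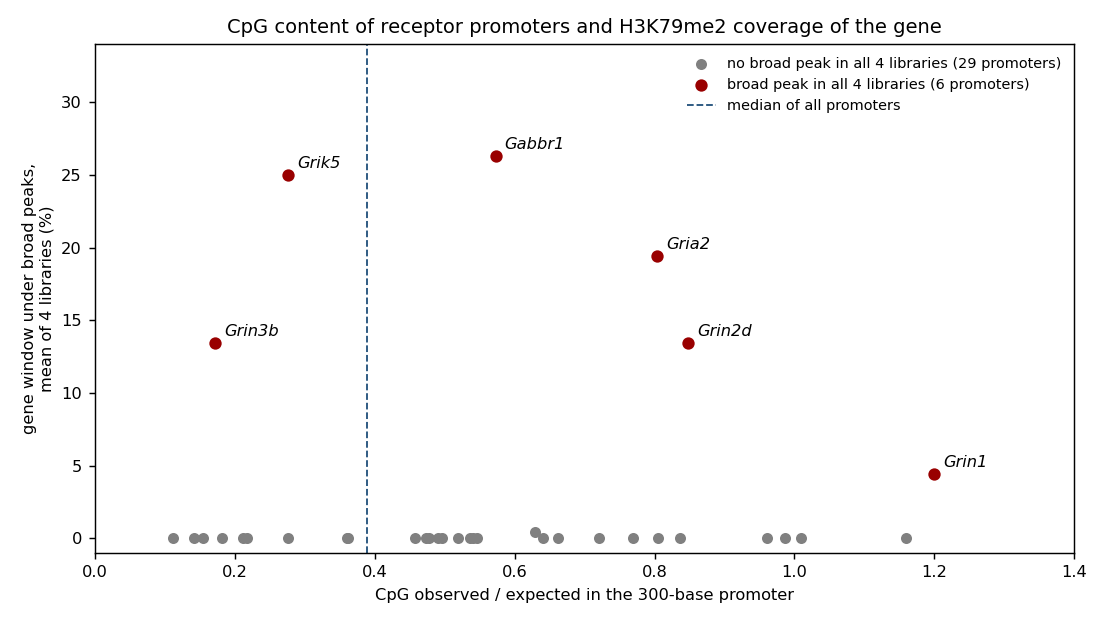
CpG observed to expected ratio of the 300-base RefSeq promoter (horizontal axis) against the mean percent of the gene window under broad peaks over the 4 libraries (vertical axis), for 35 promoters of 29 receptor genes. The dashed line is the median of all promoters, 0.389, and the genes without a broad peak in all 4 libraries (grey) spread from 0.112 to 1.16.

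Genes without a broad peak in all 4 libraries held a few narrow peaks, most of them in repeats at the genes given here. Gabrb1, which encodes a beta subunit of the GABA-A receptor, had 6 and 4 narrow peaks in CTR 1 and CTR 2, and 4 and 6 in NPM1 KD 1 and NPM1 KD 2, between 411835 and 417781 bp from its start. Each of them was masked as repeat in the reference sequence over more than 90% of its length, as were those of Gabrg3 and Gria4, which had 1 narrow peak in each of 3 libraries. The single narrow peaks of Grik3 (CTR 1) and Grin2c (NPM1 KD 1) were masked over 0% and 17.0%. Over all narrow peaks the median masked share was 19.6% to 20.9%, and 6.4% to 7.59% of peaks were masked over more than 90%. The part of repeats in these peaks was not tested. Grid1, a delta receptor gene, had no broad or narrow peak.

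The group difference was tested over all gene windows with limma on log2(covered bp + 1000). Of 10998 windows with a mean of at least 500 bp covered, 8 were receptor genes, and these passed with peaks in both groups. No receptor gene passed a Benjamini-Hochberg adjusted p of 0.05, beside 1 window of all tested (0.00909%). At an unadjusted p under 0.05, 1 receptor gene and 1751 of all windows (15.9%) were counted. The log2 difference, NPM1 KD minus CTR, was 0.16 for Grin2d (SE 0.089, limma adjusted p = 0.464) and 0.067 for Gria2 (SE 0.070, limma adjusted p = 0.651).

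Without pairing of the libraries, those of Grik5, Gabbr1, Grin1 and Grin3b were about as large as their standard errors or smaller, as the plot of log2 differences shows. Grik5 was at 0.32 (SE 0.45), Gabbr1 at 0.00017 (SE 0.068), Grin1 at -0.13 (SE 0.13) and Grin3b at -0.14 (SE 0.26), with limma adjusted p between 0.636 and 1.0. The median over the 8 genes was 0.033, beside 0.082 over all tested windows. Coverage was higher in both NPM1 KD libraries than in both CTR libraries for 2 of the 8 receptor genes, Grin2d among them, against 48.4% of all tested windows. It was lower in both for 1, against 2.7% of all. Dividing each library by its covered length over all gene windows left 0 receptor genes higher and 2 lower, Grin1 among them, and turned the split over all windows from 5326 higher and 297 lower to 2301 higher and 3769 lower. The groups thus overlapped for Grin2d under this scaling. They also overlapped for Grin2d in the narrow lists, with peaks limited to a −log10 q of 5 upward, in lists of equal size and over gene bodies alone.

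**Figure D3:**
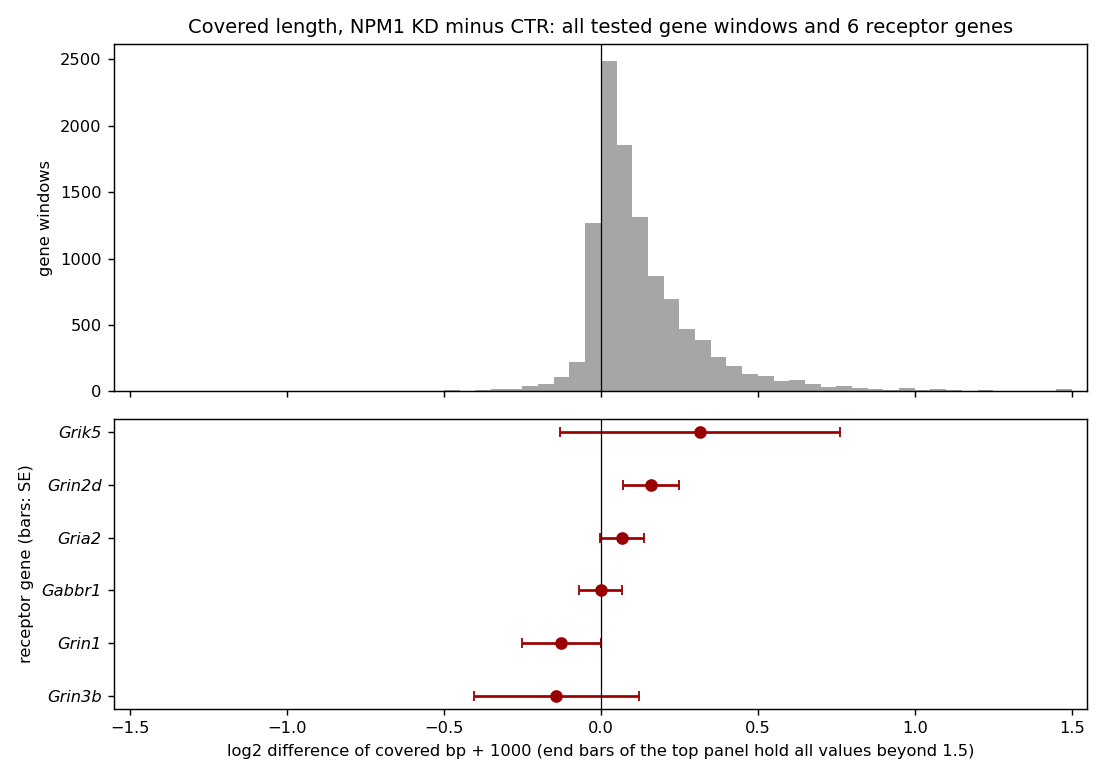
Log2 difference of covered length, NPM1 KD minus CTR, as a histogram over 10998 gene windows (top, number of windows on the vertical axis) and for 6 marked receptor genes with their standard errors (bottom). Most windows lie above 0, with a median of 0.082, and the widest error is that of Grik5, at 0.45.

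Other genes of the same synapses were taken from lists of partners and enzymes, to be read beside the 18.6% of receptor genes and the 52.5% of all genes that were marked. Of 20 postsynaptic scaffold and signalling genes, 14 had a broad peak in all 4 libraries, led by Grip1 (mean 74.3%), which binds the AMPA receptor subunits, Dlg1 (59.2%), Dlg4 (54.5%), the scaffold PSD-95, and Homer1 (42.6%), which binds group I metabotropic receptors. Of 20 auxiliary subunit genes 7 were marked, led by Nsg2 (87.1%), Cacng3 (85.5%), an AMPA receptor partner, Lhfpl4 (61.5%), which holds GABA-A receptors at synapses, and Cacng4 (37.2%). Of 16 genes for making, breaking down or moving glutamate and GABA 4 were marked, among them Glul (66.4%), the glutamine synthetase, Gls2 (50.0%), a glutaminase, and Abat (35.4%), which degrades GABA. Gad1 and Gad2, which make GABA, and the vesicular transporter genes Slc17a6, Slc17a7, Slc17a8 and Slc32a1 had no broad peak. Coverage was higher in both NPM1 KD libraries at 7, 3 and 4 of the marked genes of these lists and lower in both at 0, beside 48.4% and 2.7% of all tested windows. Glul, at 62.4% and 63.2% in CTR and 70.4% and 69.7% in NPM1 KD, was among the higher genes. Summed over all gene windows, covered length was also larger in NPM1 KD, at 256 and 248 Mb against 239 and 227 Mb in CTR. The values of Glul and the counts of these lists were not scaled for this, so a rise particular to them was not tested.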

How the data were processed

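H3K79me2 ChIP-seq peak lists of 4 N2a libraries, 2 CTR and 2 NPM1 KD, were analysed. Per the methods and the processing notes of the submitters, paired-end 51 bp reads were trimmed with Trimmomatic 0.38, aligned to mm10 (GRCm38) with Bowtie2 2.3.4.1 and freed of low-quality alignments, and MACS2 called peaks (2.2.6 in the processing notes, while the methods give another version). The authors deposited 1 broad and 1 narrow list per library, not pooled. Each deposited peak has a fold, the ratio of pileup to background (at the summit in narrow lists, a mean over the peak in broad lists), a −log10 p and −log10 q, and a score that is 10 times the −log10 q. Whether the inputs served as background is not given in the sources used here. Narrow lists may have been called before alignments were filtered. Read totals were not analysed here, so depth is given only as the recovered background pileup.

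Gene bodies of GENCODE M21 with 3 kb upstream formed the windows. Peaks of a list were merged, and covered bp were divided by window length, with no minimum overlap beyond 1 bp. A covered length measures the extent of called peaks, not read enrichment, and can change with depth. The part of depth in the differences between these libraries was not tested. Per-library values were compared by an exact permutation test, two-sided (smallest p 0.333), and covered lengths, as log2(covered bp + 1000), by limma 3.58.1 (R 4.3.3) over windows with a mean of at least 500 bp, with Benjamini-Hochberg adjustment and a threshold of 0.05. The limma and interval steps were tested on simulated data. Python 3.11.15, numpy 2.4.6, pandas 2.3.3, scipy 1.17.1 and matplotlib 3.10.9 were used. RefSeq promoters were matched by symbol. CpG observed to expected is the CpG count times the length over the product of C and G counts.

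The receptor genes, the lists of partner genes, markers and motifs, and the tests were chosen with earlier results of these data known. Results of some genes are not reported here. Values in each library were given for the others that are among the 10 receptor genes of highest mean percent covered, or whose groups did not overlap. Gabrb1 and Grin2c, with a broad peak in a single library, were given by its length. At most 4 genes were named per partner list by mean percent covered. Glul was named with its values after they were seen. Alternatives were narrow lists, peaks limited to a −log10 q of 5 upward, lists cut to equal size, gene bodies alone, any transcript start, at least 500 bp covered, scaling by covered length, a pseudocount of 200 bp, no filter, centred values, the replicate number as a block and leaving out each library.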

Additional observations from a re-analysis of the deposited data

How the results depend on the processing

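The count of receptor genes with a broad peak in all 4 libraries was 7 to 10 under every alternative run. Those with a peak over the gene start numbered 1 in the narrow lists, 4 with any transcript start and 2 otherwise. Genes with higher coverage in both NPM1 KD libraries fell from 2 to 1 in the narrow lists and over gene bodies alone. They fell to 0 with peaks limited to a −log10 q of 5 upward and after scaling by covered length. Grin2d was not among the higher genes in any of these settings. In lists of equal size the count stayed at 2, with Grik5 in place of Grin2d. Leaving out a library gave 2 to 4, with 4 without CTR 1 or NPM1 KD 1. The share of all tested windows that was higher moved as well. It was 44.2% in the narrow lists, 47.4% in lists of equal size, 45.2% over gene bodies, 37.4% at the stricter q and 20.9% after scaling. On leaving out a library it was 53.1% to 75.3%, with 75.3% without CTR 1 and 54.1% without NPM1 KD 1. Genes with lower coverage in both numbered 2 in place of 1 in the narrow lists, with peaks limited to a −log10 q of 5 upward, in lists of equal size, over gene bodies and after scaling, and 1 to 3 on leaving out a library (3 without CTR 2 or NPM1 KD 1, 2 without NPM1 KD 2).

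No receptor gene passed the limma threshold under any alternative; the smallest adjusted p of any receptor gene lay between 0.178 and 0.735 over the alternatives. Over all windows limma called 0 to 2, and 23 with peaks limited to a −log10 q of 5 upward. The median log2 difference of the receptor genes was -0.114 in the narrow lists, -0.0639 with peaks limited to a −log10 q of 5 upward, -0.0468 in lists of equal size and -0.0919 after centring on the library median, against 0.0334 as reported, and lay between -0.0153 and 0.113 on leaving out a library. Its sign thus depended on the list and the scaling. Centring moved the median of all windows from 0.0818 to -0.0435. For single genes, 11 of 56 differences in percent covered changed sign, none of them that of Grin2d, and 1 was 0 because Grin1 had no peak left. The causes were not tested.

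With the replicate number as a block, 0 receptor genes passed and the median log2 difference stayed at 0.0334. Within same-numbered libraries Grik5 was higher and Grin3b lower in NPM1 KD both times. With the block their limma p was 0.0227 and 0.0376 unadjusted, and 0.21 and 0.225 adjusted, in place of 0.741 and 0.811 adjusted without it. These were the 2 of 8 receptor genes with an unadjusted limma p under 0.05 in the block model. Of all 10998 windows, 2311 were under 0.05 unadjusted in that model. How many windows moved the same way within both pairs was not counted. Same-numbered libraries deviated together with a correlation of 0.292 over windows, from only 2 pairs. The labels give these pairs no more than a shared number, and the methods, which tie each replicate to its own passage and transfection batch, do not say that the groups shared them.

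Depth was unequal, with a background pileup of 7.65 in CTR 2 against 11.9 in CTR 1, and a gene without called peaks is one with none at this depth.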
